A study of Saccharomyces cerevisiae with 4 samples.

Results

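The genes described here are 31 of the 6679 listed in the table: the enzymes that make ergosterol from acetyl-CoA, their electron donors, the transcription factors and membrane proteins that regulate them, and the enzymes that esterify the product. They were chosen by systematic name for their known roles, and all 31 were found. Poly(A) RNA came from *Saccharomyces cerevisiae* of the SK1 strain, grown vegetatively in rich medium (YPD) and harvested in exponential phase. The vehicle group held 2 libraries of cells given ethanol at volumes matched to 20 nM and 40 nM of an inducer. The inducer group held 2 libraries, from cells treated with bEST, a name the labels leave unexplained, at 20 nM and at 40 nM. The study's question was what high levels of spliced HAC1 mRNA, driven from outside its own control, do to growing cells. All 4 libraries are labelled as wild type, and the labels give neither how HAC1 was driven nor ploidy or mating type. The libraries of a group came from cells given different doses or ethanol volumes, so they are not repeats of the same treatment. Nothing in the labels says whether those cells came from separate starting cultures. The p-values therefore measure only the spread between these libraries, in which any effect of dose is included.

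Ergosterol is the main sterol of yeast membranes, the counterpart of cholesterol in animals. The mevalonate steps turn acetyl-CoA into farnesyl diphosphate, which also feeds dolichol, ubiquinone and protein prenylation. Squalene synthesis and cyclisation then give lanosterol, and the late steps, most of them in the membrane of the endoplasmic reticulum (ER), trim and desaturate lanosterol to ergosterol. Upc2 and Ecm22 are transcription factors that sense sterol and bind sterol response elements upstream of ERG genes. Hac1, made from the spliced mRNA, is the activator that switches on the unfolded protein response when unfolded protein builds up in the ER.

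Values are RPKM, reads scaled to gene length and library depth, and are given in the order vehicle matched to 20 nM, vehicle matched to 40 nM, inducer at 20 nM and inducer at 40 nM. Recovered depth was between 1182000 reads (inducer, 20 nM) and 4157000 reads (inducer, 40 nM), and the shallow library carries the most counting error. HAC1 stood at 487, 528, 5922 and 3712 RPKM and its target KAR2, the ER Hsp70, at 354, 395, 4194 and 3612 RPKM, in the direction of the labels. The meiotic genes IME1, IME2, NDT80, SPO11 and SMK1, looked up after other values were seen, were at most 5.78 RPKM in any library, low in all 4 libraries labelled as vegetative. Changes are log2 fold changes of inducer over vehicle on the log2(RPKM + 1) scale, tested with limma over the 5317 genes whose mean reached 5 RPKM. A gene is said to have risen or fallen when its Benjamini-Hochberg adjusted p was under 0.05.

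None of the 31 sterol genes passed that threshold in either direction, where 2.48% of all tested genes rose and 0.733% fell. At an unadjusted p under 0.05 there were 3 members, ERG10, ERG27 and CYB5, all higher with inducer, beside 16.3% of all tested genes. That balance depended on the setting. The unadjusted count was 8 members (4 higher, 4 lower) with libraries scaled to the same median, beside 987 of 5317 tested genes. It was 6 (4 higher, 2 lower) with limma-voom on recovered reads, beside 878 of 5170 tested genes. The unadjusted count also moved when 1 library was left out, among the members and among all tested genes alike. With limma-voom on recovered reads 1 member, ERG27, rose. The members' log2 fold changes lay between -0.60 and 0.93 with a median of -0.05, and that of all tested genes was -0.02. The smallest change called in any gene was 0.95 in size, so changes of the size seen in most members lay below what this comparison called. Leaving out the 40 nM inducer library gave 1 rise and 4 falls among the members and 333 rises and 460 falls among all genes.

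The values were not spread evenly along the pathway. In RNA from whole cultures, a difference in every cell and a larger one in some cells cannot be told apart. Of the 11 genes of the late steps 9 were lower in both inducer libraries than in both vehicle libraries, 1 (ERG27) was higher in both, and 1 (ERG2) overlapped. Among all tested genes 23.9% were lower in this way and 23% higher. Of the 9 mevalonate genes 5 were higher in both inducer libraries, 2 were lower and 2 overlapped. The median log2 fold change was 0.17 for the mevalonate genes, 0.10 for the 3 genes from farnesyl diphosphate to lanosterol and -0.33 for the late genes. Well-expressed genes as a whole leaned the same way as the late genes: the 1654 tested genes at a mean of at least 100 RPKM, a level chosen after seeing the data, had a median of -0.14. Without the 20 nM inducer library the late median was -0.13, and 9 of its 11 genes were still below 0.

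**Figure D1:**
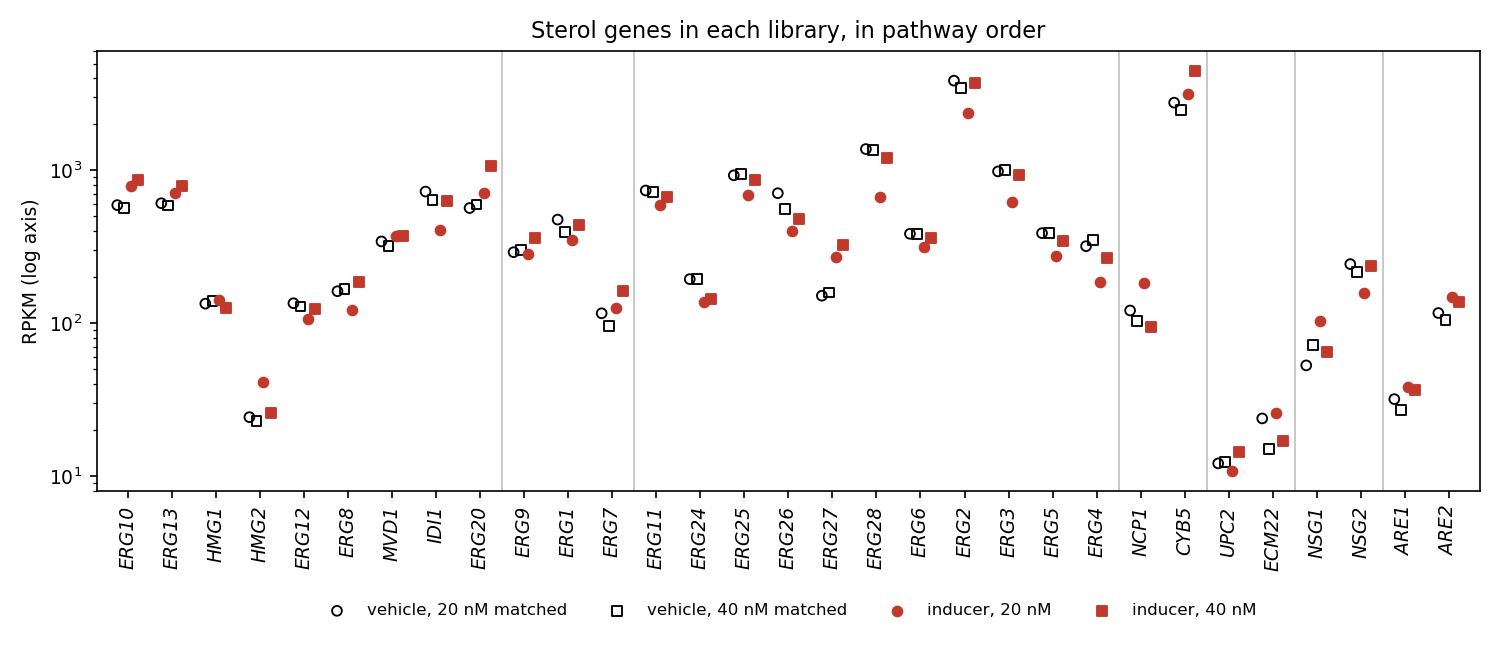
RPKM (log axis) of each sterol gene in pathway order, open symbols for the vehicle libraries and filled red symbols for the inducer libraries, circles for 20 nM and squares for 40 nM. Grey lines part the groups in the order mevalonate, squalene to lanosterol, late, electron donors, transcription factors, INSIG homologues and esterification; levels run from about 10.7 RPKM (UPC2) to 4486 RPKM (CYB5), and in most late genes both filled symbols lie below both open ones.

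Shares of the pathway's RNA do not depend on how libraries are scaled, but they sum to a whole, so that one share falls when another rises. Of the summed RPKM of the 23 enzyme genes, the late genes held 70.6% in each vehicle library and 61.2% and 64.5% in the inducer libraries. The mevalonate genes held 23.2%, 23.5%, 31.7% and 28.8%. ERG2 alone made up 22.3% to 27.2% of the sum, and without it the late share was 59.7%, 60.5%, 50.1% and 52.2%. Vehicle and inducer libraries did not overlap in the late and mevalonate shares, which were not tested. The sums behind them differed by dose. At 20 nM the late genes summed to 6547 RPKM, against 10039 RPKM in the matched vehicle library, and the mevalonate genes to 3393 RPKM against 3291 RPKM. At 40 nM the late sum was 9345 RPKM against 9526 RPKM, and the mevalonate sum 4177 RPKM against 3170.1 RPKM. In the deposited values the lower late share thus went with a lower late sum at 20 nM and mostly with a higher mevalonate sum at 40 nM. Unlike the shares, these sums depend on how libraries are scaled. Over all genes RPKM summed to 1763370 and 1807690 with vehicle and to 1566580 and 1655000 with inducer.

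The first mevalonate steps had higher values with inducer. ERG10 (YPL028W), acetyl-CoA C-acetyltransferase, stood at 592, 564, 790 and 864 RPKM (log2 fold change 0.52, SE 0.20, limma adjusted p = 0.268). ERG13 (YML126C), HMG-CoA synthase, stood at 609, 589, 706 and 786 RPKM (0.31, SE 0.20). Both inducer libraries lay above both vehicle libraries in each gene. The next step, HMG-CoA reductase, is the main control point of the pathway and has a pair of isozymes. HMG1 (YML075C) stood at 134, 140, 141 and 125 RPKM (-0.05, 95% interval -0.57 to 0.47), with the groups overlapping. HMG2 (YLR450W), the isozyme whose protein is degraded on demand by the ER ubiquitin ligase Hrd1, stood at 24.2, 22.9, 40.9 and 25.6 RPKM (0.44, SE 0.28, adjusted p = 0.509). The HMG2 difference sat in the 20 nM library: the Poisson interval at 40 nM, 22.9 to 28.6 RPKM, held the 24.2 RPKM of a vehicle library. The HMG1 level was 5.54 and 6.13 times that of HMG2 with vehicle and 3.45 and 4.87 times with inducer.

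The middle mevalonate enzymes had smaller or uneven differences. ERG12 (YMR208W), mevalonate kinase, stood at 135, 129, 107 and 125 RPKM and ERG8 (YMR220W), phosphomevalonate kinase, at 162, 166, 121 and 187 RPKM. MVD1 (YNR043W), mevalonate diphosphate decarboxylase, stood at 342, 319, 374 and 372 RPKM (0.17, SE 0.21). In ERG8 the inducer libraries lay on either side of the vehicle libraries. IDI1 (YPL117C), which interconverts the isoprenoid building blocks, stood at 726, 642, 404 and 626 RPKM (-0.44, SE 0.27), low in the 20 nM inducer library and close to vehicle at 40 nM. ERG20 (YJL167W), which makes farnesyl diphosphate and so stands at the branch to dolichol and ubiquinone, stood at 566, 598, 709 and 1068 RPKM (0.58, SE 0.25, adjusted p = 0.324). Both inducer libraries were above both vehicle libraries in ERG20, the 40 nM library most.

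The 3 genes from farnesyl diphosphate to lanosterol did not move together. ERG9 (YHR190W), squalene synthase, stood at 291, 300, 282 and 358 RPKM and ERG1 (YGR175C), squalene epoxidase, at 476, 395, 348 and 439 RPKM. The groups overlapped in both genes. ERG7 (YHR072W), lanosterol synthase, stood at 116, 96.2, 125 and 163 RPKM (0.43, SE 0.25, adjusted p = 0.462), with both inducer libraries above vehicle.

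**Figure D2:**
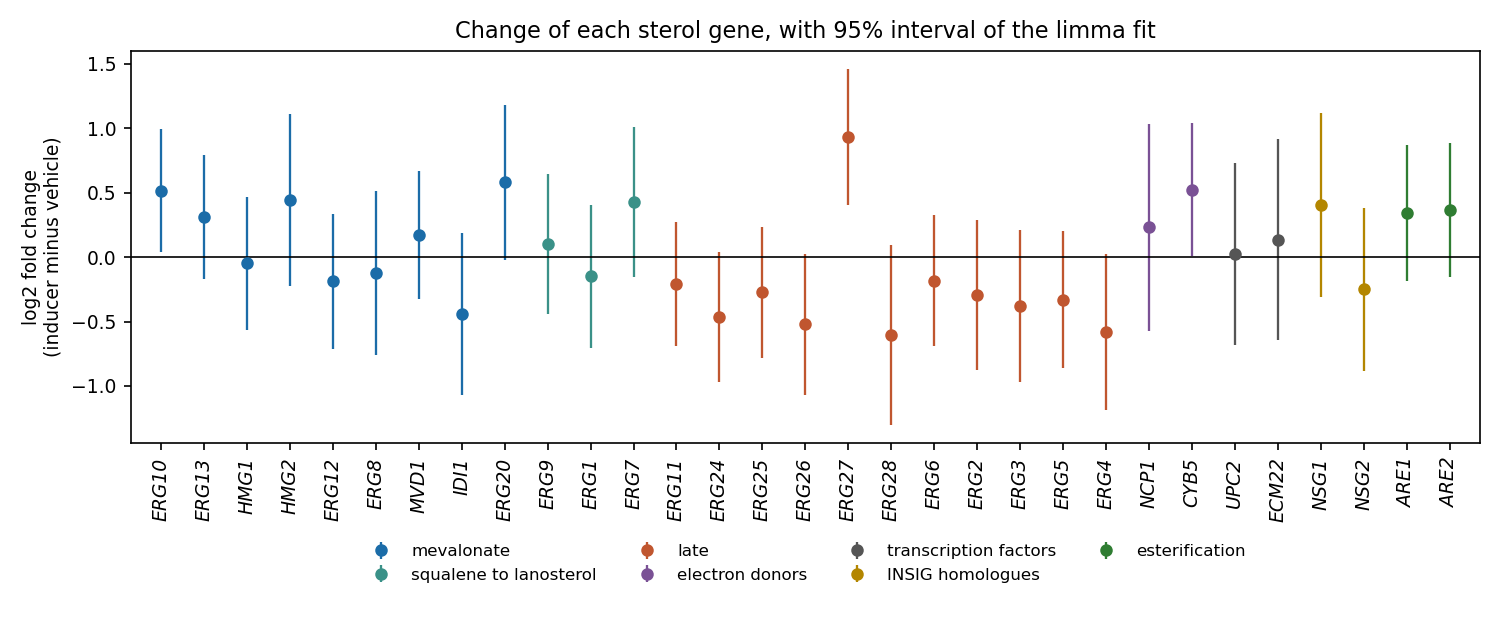
Log2 fold change of inducer over vehicle for each sterol gene in pathway order (points), with the 95% interval of the limma fit (bars), coloured by group. The late genes lie below 0 but for ERG27 at 0.93; the intervals of ERG10, ERG27 and CYB5 leave out 0 before adjustment, and none of the 31 genes passed after it.

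ERG27 (YLR100W), the 3-keto sterol reductase of C-4 demethylation, had the largest change of the 31 genes. It stood at 151, 159, 271 and 325 RPKM, a log2 fold change of 0.93 (SE 0.22, 1.91-fold, unadjusted p = 0.00416, adjusted p = 0.0802). The libraries of the groups were far apart beside counting error, whose 95% Poisson intervals ended at 175 RPKM in the higher vehicle library and began at 243 RPKM in the lower inducer library. The change was 0.84 at 20 nM and 1.03 at 40 nM, and 0.81 to 1.06 with any 1 library left out. Its adjusted p was 0.0274 with limma-voom on recovered reads, 0.042 without the 40 nM inducer library and as high as 0.654 without another library. Among all tested genes its change lay at percentile 94.1.

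The other enzymes of C-4 demethylation went the other way. ERG25 (YGR060W), the C-4 methyl sterol oxidase, stood at 928, 948, 693 and 868 RPKM (-0.27, SE 0.21). ERG26 (YGL001C), the C-3 sterol dehydrogenase, stood at 708, 560, 402 and 477 RPKM (-0.52, SE 0.23, adjusted p = 0.333). ERG28 (YER044C), which tethers these enzymes to each other in the ER membrane, stood at 1379, 1358, 670 and 1209 RPKM (-0.60, SE 0.30, adjusted p = 0.378). Each was lower in both inducer libraries than in both vehicle libraries. The log2 ratio of ERG28 was -1.04 at 20 nM and -0.17 at 40 nM, and its fold change without the 20 nM inducer library was -0.18. The products of ERG25, ERG26, ERG27 and ERG28 act together as 1 complex, and ERG27 differed in sign from the other members of it, a difference that was not tested.

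Upstream sequence was read from the R64 reference, which is the S288C strain and not SK1, in 500 bases before each start codon. The capitals below mark matches to motifs known for Hac1, CAGNGTG and TACGTG, and to TCGTTTA, a variant by 1 base of the sterol response element core TCGTATA. Both strands were searched. ERG27 is shown because it had the largest change and is the only member with both Hac1 motifs, and ERG11 because it holds CAGCGTG too.
ERG27, from 444 to 414 bases before the start codon: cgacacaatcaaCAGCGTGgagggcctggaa
ERG27, from 149 to 98 bases before the start codon: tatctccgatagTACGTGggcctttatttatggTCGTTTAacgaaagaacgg
ERG11, from 141 to 111 bases before the start codon: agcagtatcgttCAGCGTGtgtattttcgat
CAGNGTG occurred in the windows of 7 of 31 members and of 10.2% of 6000 genes, and TACGTG in 3 of 31 and 13.1%. ERG11 (YHR007C), lanosterol 14-alpha-demethylase and the target of azole drugs, stood at 738, 719, 593 and 667 RPKM (-0.21, SE 0.20), lower in both inducer libraries. Of the 7 members with CAGNGTG, 6 had log2 fold changes above 0 and 1, ERG11, below 0, with a median of 0.23. Both inducer libraries lay above both vehicle libraries in 3 of the 7 and below in 1, beside 23% and 23.9% of all tested genes. Among all tested genes 2554 of 5317 were above 0. Whether genes with the motif differed from genes without it was not tested. Of the 9 with CAGNGTG or TACGTG, 7 were above 0 and 2 below. A match of letters describes the reference sequence and is no evidence of binding.

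The remaining late genes also had log2 fold changes below 0. ERG24 (YNL280C), the C-14 sterol reductase, stood at 194, 193, 136 and 144 RPKM (-0.46, SE 0.21, adjusted p = 0.351). It was the late gene with the most even ratios, -0.50 at 20 nM and -0.43 at 40 nM. ERG4 (YGL012W), the last enzyme of the pathway, stood at 319, 351, 186 and 267 RPKM (-0.58, SE 0.25, adjusted p = 0.324). ERG3 (YLR056W), the C-5 desaturase, stood at 984, 1000.4, 624 and 935 RPKM (-0.38, SE 0.25). In these 3 genes both inducer libraries were below both vehicle libraries, and the 20 nM library was the lower. ERG5 (YMR015C), the C-22 desaturase, stood at 388, 388, 276 and 344 RPKM (-0.33, SE 0.22) and ERG6 (YML008C), the C-24 methyltransferase, at 384, 381, 313 and 363 RPKM (-0.18, SE 0.22), in the same order. ERG2 (YMR202W), the C-8 isomerase and the most abundant of the 31 by mean RPKM over the 4 libraries, stood at 3866, 3469, 2381 and 3745 RPKM (-0.29, SE 0.25), and its 40 nM inducer value lay between the vehicle values. Without the 40 nM inducer library the log2 fold changes of ERG28, ERG4 and ERG3 were -1.03, -0.84 and -0.67. That of IDI1, of the mevalonate steps, was -0.75. Without the 20 nM inducer library the same values, in that order, were -0.18, -0.32, -0.09 and -0.12. Each of these fits leaves a single inducer library to stand for its group. Without the 40 nM library far more of all tested genes fell than in the main fit.

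Letters of the sterol response element stood upstream of many of the pathway's genes. TCGTATA occurred in 10 of 31 windows and in 7% of all 6000, and TCGTTTA in 19 of 31 and 8.8%. ERG2, the most abundant member by mean RPKM, and 4 late genes with matches close to each other are shown as examples, with capitals on both motifs, and 1 further ERG3 match and the matches of other late genes are not printed; a match on the opposite strand reads TATACGA for the core and TAAACGA for the variant.
ERG2, from 197 to 167 bases before the start codon: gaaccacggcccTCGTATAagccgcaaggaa
ERG25, from 495 to 435 bases before the start codon: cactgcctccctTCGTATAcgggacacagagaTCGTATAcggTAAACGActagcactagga
ERG3, from 370 to 268 bases before the start codon: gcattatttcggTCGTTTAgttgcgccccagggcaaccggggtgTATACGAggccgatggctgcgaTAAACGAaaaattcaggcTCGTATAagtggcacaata
ERG4, from 239 to 197 bases before the start codon: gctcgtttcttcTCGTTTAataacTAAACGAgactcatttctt
ERG26, from 176 to 118 bases before the start codon: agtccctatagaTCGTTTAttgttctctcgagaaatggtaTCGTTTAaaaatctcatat
Of the 10 members with TCGTATA, 8 had log2 fold changes below 0 and 2, ERG13 and CYB5, above 0, with a median of -0.22. Both inducer libraries lay below both vehicle libraries in 4 of the 10 and above in 2. For all tested genes these shares were 23.9% and 23%, and for the 31 members the counts were 11 and 10. Among all tested genes 2763 of 5317 were below 0. All 10 had means above 100 RPKM, and tested genes at a mean of at least 100 RPKM had a median of -0.14. The 8 included the late genes ERG25, ERG28, ERG6, ERG2 and ERG3. Of the late genes without TCGTATA, ERG11, ERG24, ERG26, ERG5 and ERG4 were also below 0 and ERG27 was above. Of the 19 with TCGTTTA, ERG27 and ERG20 among them, 10 were above 0 and 9 below, with a median of 0.02. The 6 members with neither, HMG2, ERG12, IDI1, ERG11, NSG1 and ARE2, had 3 on each side of 0.

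The electron donors of the cytochrome P450 and desaturase steps did not move as a pair. CYB5 (YNL111C), cytochrome b5, stood at 2774, 2482, 3174 and 4486 RPKM (0.52, SE 0.22, unadjusted p = 0.0478, adjusted p = 0.302), with both inducer libraries above vehicle. NCP1 (YHR042W), the NADPH-cytochrome P450 reductase, stood at 121, 103, 184 and 93.7 RPKM, above vehicle at 20 nM and below it at 40 nM.

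The genes of the sterol-sensing transcription factors were the lowest of the 31 and showed no separation of the groups. UPC2 (YDR213W) stood at 12.1, 12.3, 10.7 and 14.3 RPKM (0.02, 95% interval -0.69 to 0.73), resting on 34 to 160 reads, and its sign turned when libraries were scaled to the same median. ECM22 (YLR228C) stood at 23.8, 15.0, 25.8 and 16.8 RPKM (0.14, 95% interval -0.65 to 0.92). In ECM22 the libraries of the 20 nM pair were high and those of the 40 nM pair low, with and without inducer. Both intervals reach beyond 0.6 on the log2 scale in each direction, so a change of moderate size in either gene was not detectable here.

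NSG1 and NSG2 encode the yeast homologues of INSIG, membrane proteins that shield Hmg2 from degradation. NSG1 (YHR133C) stood at 52.9, 71.7, 104 and 64.5 RPKM (0.40, SE 0.30) and NSG2 (YNL156C) at 243, 215, 157 and 235 RPKM (-0.25, SE 0.27). The groups overlapped in both. NSG2 overlaps YNL155C-A on the same strand in R64, and reads of the overlap cannot be assigned here. At 20 nM they moved apart, by 0.96 for NSG1 and -0.63 for NSG2, and at 40 nM they stood at -0.15 and 0.13. The NSG2 level was 4.60, 3.004, 1.52 and 3.65 times that of NSG1.

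Both sterol acyltransferase genes were higher with inducer at each dose by small amounts. ARE1 (YCR048W) stood at 31.8, 27.0, 38.0 and 36.7 RPKM (0.34, SE 0.22, adjusted p = 0.520). ARE2 (YNR019W), the main isozyme in aerobic cells, stood at 116, 104, 147 and 137 RPKM (0.37, SE 0.22, adjusted p = 0.483). In each gene both inducer libraries were above both vehicle libraries. ARE1 overlaps YCR050C on the opposite strand, and whether reads were counted by strand is not given in the labels. The ARE2 level was 3.66 to 3.88 times that of ARE1 in all 4 libraries.

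The doses differed for many members, with 1 library per treatment and dose and no test between doses. The log2 ratio of inducer to matched vehicle was lower at 20 nM than at 40 nM in 27 of 31 members and in all 11 late genes. The lean was not confined to members: of all 5317 tested genes, 2992 were below 0 at 20 nM and 2304 at 40 nM. The late median was -0.50 at 20 nM and -0.13 at 40 nM, while over all tested genes these medians were -0.10 and 0.07, and over genes of at least 100 RPKM -0.30 and -0.02. The mevalonate median was 0.13 and 0.17. Members with the same sign at both doses were 11 above 0 and 11 below, and 9 changed sign: HMG1, ERG8, ERG9, ERG1, ERG2, NCP1, UPC2, NSG1 and NSG2. HAC1 itself had the higher log2 ratio at the lower dose, 3.60 at 20 nM and 2.81 at 40 nM, as did KAR2 at 3.56 and 3.19. The 20 nM inducer library is also the shallowest, and the part of dose, HAC1 level, depth and library in these ratios cannot be told apart.

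**Figure D3:**
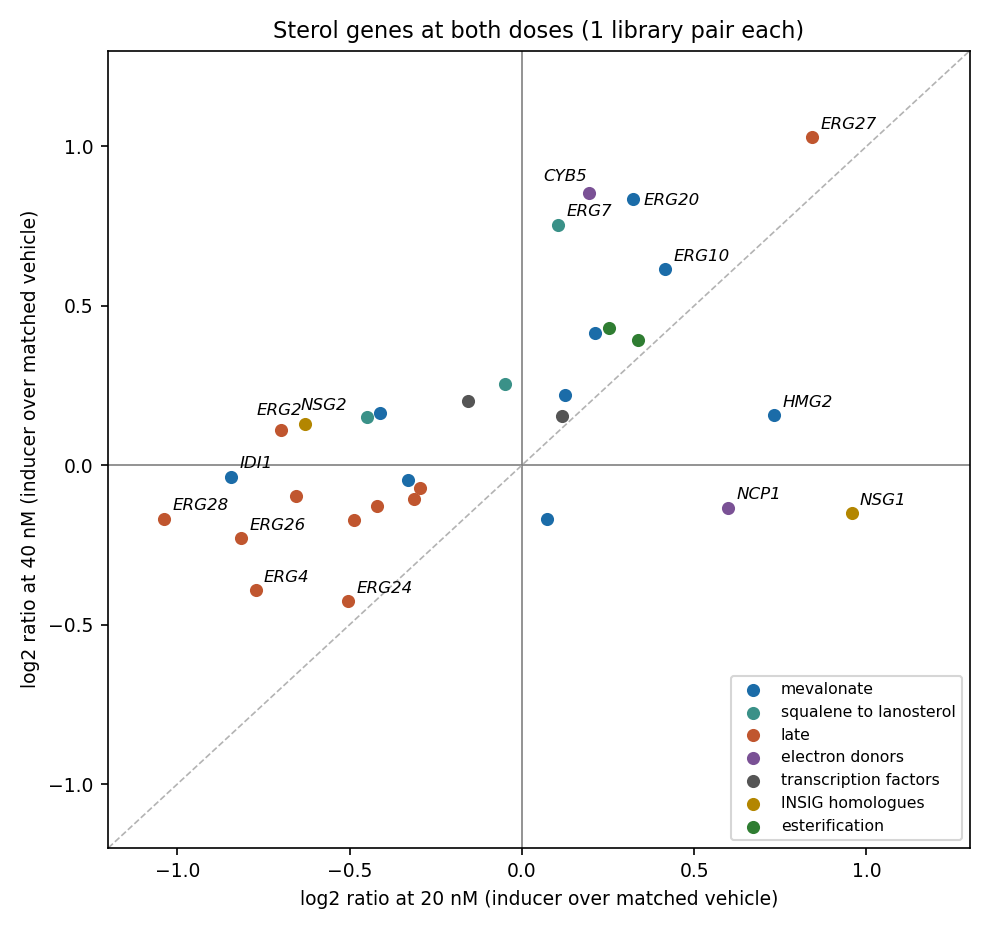
Log2 ratio of inducer to volume-matched vehicle at 20 nM (horizontal) and 40 nM (vertical) for the 31 sterol genes, coloured by group, with the dashed line marking equal ratios. All but 4 genes lie above the line; ERG27 is positive at both doses, 9 late genes are negative at both, and NSG1, NCP1 and HMG1 are positive at 20 nM only.

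Genes around the pathway, 46 in lists chosen by known role, included 44 that were tested, of which 5 rose and 0 fell, beside 2.48% and 0.733% of all tested genes. An unadjusted p under 0.05 was found for 10 of the 44, beside 16.3% of all tested genes. NCR1, the homologue of the NPC1 sterol transporter of the lysosome, stood at 16.6, 15.6, 56.3 and 50.6 RPKM (1.67, SE 0.22, adjusted p = 0.0107), and was called with any 1 library left out. It was the 1 riser among 16 tested genes of sterol transport, whose median was 0.33; NPC2, its soluble partner, stood at 306, 254, 210 and 355 RPKM. The plasma membrane sterol importer AUS1 stood at 8.30, 5.50, 23.97 and 14.8 RPKM (1.35, SE 0.37, adjusted p = 0.111). The 5 genes of sterol ester hydrolysis and sterol acetylation held no call (median -0.07), nor did the 6 other regulators (median 0.14) or the 4 cofactor genes (median -0.25).

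NUS1 and RER2, genes of the enzyme that draws on farnesyl diphosphate for dolichol, had higher values with inducer, and NUS1 rose. SRT1, another gene listed with the prenyl branches, stood at 2.41, 0.79, 0.87 and 0.25 RPKM and was not tested. NUS1, a subunit of the cis-prenyltransferase that starts dolichol synthesis, stood at 38.2, 51.9, 138 and 144 RPKM (1.64, SE 0.24, adjusted p = 0.0161). That call depended on the libraries of the 20 nM pair, with adjusted p = 0.0963 when the vehicle member was left out and 0.0535 when the inducer member was. RER2, its catalytic partner, stood at 73.2, 74.4, 109 and 187 RPKM (0.94, SE 0.30, adjusted p = 0.175). The ubiquinone branch gene COQ1 had a log2 fold change of 0.44 (SE 0.21) and the geranylgeranyl diphosphate synthase gene BTS1 of 0.19 (SE 0.25). The farnesyltransferase genes went opposite ways, RAM1 at -0.43 (SE 0.28) and RAM2 at 0.44 (SE 0.23). Of the tested genes of the prenyl branches, only NUS1 passed the threshold.

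Of 7 genes of the ER machinery that degrades Hmg2 and Erg1, or that bears on it, 3 rose, beside 2.48% of all tested genes, and the median was 1.101. These were HRD1 (1.29, SE 0.26, adjusted p = 0.0478), the ligase itself, USA1 (1.96, SE 0.29, adjusted p = 0.0158), its scaffold, and SPF1 (1.63, SE 0.29, adjusted p = 0.0316), an ER membrane ATPase. Leaving out either vehicle library ended the HRD1 call (adjusted p = 0.107 and 0.153), and leaving out the inducer library at 20 nM ended that of USA1 (adjusted p = 0.063). HRD3, the partner of Hrd1, had a change of 1.101 (SE 0.23, adjusted p = 0.0568). SSM4, the ligase Doa10 that acts on squalene epoxidase, stood at 43.8, 35.8, 48.5 and 41.0 RPKM (0.17, SE 0.23). These genes were picked with earlier results in view, so their counts are a description.

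**Figure D4:**
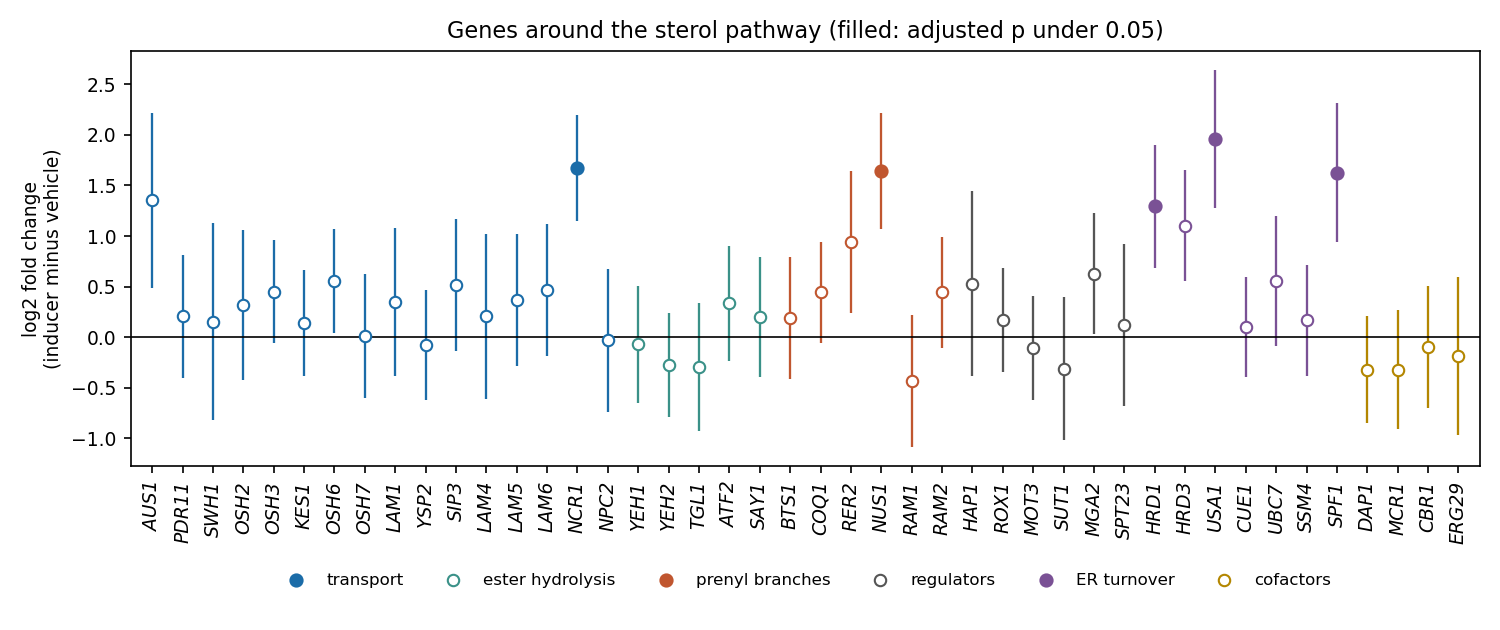
Log2 fold change of inducer over vehicle, with the 95% interval of the limma fit, for the 44 tested genes around the sterol pathway, coloured by list. Filled points passed an adjusted p under 0.05: NCR1 (transport), NUS1 (prenyl branches) and HRD1, USA1 and SPF1 (ER turnover).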

How the data were processed

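The deposited table gives 1 value per gene and library, and its header names no unit. The authors' deposited values were taken as RPKM because they are whole multiples of a step set by gene length. With R64 coding lengths less 60 bases, 92.9% to 94% of values of up to 50 reads lay within 0.05 reads of a whole number, which gave the depths and reads. Poisson intervals (95%) cover counting error only. STAR and SAMtools are named in the submitters' processing notes. The sources used here do not give the counting tool, build, annotation or filters. Symbols and lengths came from R64 by systematic name (5982 of 6679 matched); no coordinates are printed.

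Inducer and vehicle were compared by limma 3.58.1 (R 4.3.3), fitted to log2(RPKM + 1) with a variance trend and no covariate, over genes whose mean reached 5 RPKM. An effect of dose therefore counts as spread. All 31 members passed the filter, none has a repeated window of 50 bases, and only NSG2 and ARE1 overlap another gene. In data simulated for this comparison, with 5170 genes, the test called 81% of genes given a log2 change of 1, 100% of those given 2 and 0.604% of unchanged genes. Between the real libraries of a group, the SD of log2 differences over all tested genes was 0.628 with inducer and 0.432 with vehicle. The simulation gave libraries of both groups the same spread beside counting error, a setting not fitted to these data. The real inducer libraries differed more from each other than the vehicle libraries did. How widely the simulated libraries differed was not measured, so the simulated shares may overstate the power of the real comparison.

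The members, lists, motifs and tests were chosen with earlier results of these data known. All members are named; genes of related lists are named where they passed the threshold, and other named ones were chosen after their values were seen. Alternatives were other pseudocounts, filters and scaling, a block on matched dose, limma-voom on recovered reads and leaving out each library.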

Additional observations from a re-analysis of the deposited data

How the results depend on the processing

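The counts of 0 rises and 0 falls among the members held with a pseudocount of 0.1 or 5 RPKM, with no filter, with a mean of at least 20 RPKM, with median scaling and without any 1 library other than the 40 nM inducer library. Without 1 library the rises ranged from 0 to 1, the falls from 0 to 4, the genes called over all from 145 to 793 and the mevalonate median from 0.123 to 0.2229. With limma-voom on recovered reads 1 member rose and 308 genes were called. All genes called, 171, became 0 with no filter (896 at an unadjusted p under 0.05), where HAC1, KAR2 and the 5 called related genes lost their calls too; the cause was not tested. The dose to which libraries were matched gave a replicate block with 366 genes called and 0 members. Deviations of libraries with the same dose correlated at -0.205 across genes. The inducer libraries also differ in dose and depth, so this value cannot show whether libraries of the same dose share a culture or batch. The labels match the libraries by volume only. The crossed pairing, added after seeing the data, called 668 genes, and 1 member rose. Signs turned for UPC2 with median scaling (-0.003194). With 1 library left out, signs turned in ECM22 (-0.1794 to 0.4517), ERG8 (-0.4317 to 0.1852), ERG1 (-0.3151 to 0.0173), ERG2 (-0.6206 to 0.03225), NCP1 (-0.249 to 0.7142), NSG2 (-0.5413 to 0.04073), HMG1 (-0.1356 to 0.04038), ERG9 (-0.06963 to 0.277) and UPC2 (-0.1721 to 0.2166). With 1 library left in a group, that library is assumed to vary like the other group.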
